A study of Mus musculus with 32 samples.

Results

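The Rab GTPases are the largest family of Ras-like small G proteins, and each member marks particular membranes of the cell. A Rab is loaded with GTP by a guanine nucleotide exchange factor (GEF), binds effector proteins that tether, move or fuse vesicles while it is active, and is switched off by a GTPase-activating protein (GAP). GDP dissociation inhibitors then carry the inactive protein through the cytosol. In microglia, the resident macrophages of the brain, this traffic carries engulfed material from the plasma membrane through early and late endosomes to the lysosome.

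The members were the protein-coding genes of the table whose symbol is Rab, a number and at most letters or a digit, without binding partners such as the Rab11fip genes. RefSeq lists 59 such mouse genes, and 55 of them were among the 18588 genes of the table; Rab3b, Rab9b, Rab27b and Rab38 had no row. By their best known compartment, 8 members were grouped under the early endosome, 8 under the recycling endosome, 9 under the late endosome, lysosome and autophagosome, 14 under the endoplasmic reticulum (ER) and Golgi, 12 under exocytosis and secretory granules, and 4 under the cilium, ubiquitin ligase adaptors and other roles.

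The libraries came from female rTg4510 mice and female wild-type (WT) littermates at 2, 4, 6 and 8 months of age. rTg4510 mice carry human tau with the P301L mutation behind a tetracycline-responsive element, together with a transactivator driven by CaMKIIα that restricts expression to forebrain neurons after birth. The WT mice carried neither transgene, so that tau and transactivator cannot be told apart. Each library was microglial RNA from forebrains of several pooled animals, taken with magnetic beads against CD11b, a surface integrin of myeloid cells. Of 4 libraries per group, 4 were used at 2 and at 6 months and 3 at 4 and at 8 months, since replicate 3 of both genotypes at 4 months and replicate 4 of both at 8 months failed the quality control of the study.

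Values were log2 gene signals, the authors' summary over the exons of a gene, with every library set to the same median. They are not divided by gene length, so levels were compared between libraries and not between genes. A gene was called where rTg4510 and WT differed by more than 1.5 fold at a false discovery rate (FDR) under 0.05, adjusted over all 18588 genes of a comparison in limma. No counts stand behind these signals in the files, and a value within 1.58 (log2) of the lowest value of its library, a 3-fold range, was counted as near the floor. At least 1 of the 28 libraries was near the floor for 13 members, whose SD within groups ran from 0.32 to 1.10, and no library was for the other 42, with SDs from 0.10 to 0.76.

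All 8 microglial markers had a row, with a summed log2 level of 14.4 to 15.2 over the libraries, and 0 of 8 were called higher and 3 of 8 lower in rTg4510 at 6 months. Their summed level at that age was 15.0 to 15.1 in WT and 14.6 to 14.8 in rTg4510, and it did not overlap at 4 and 8 months either. Of the 8 neuronal markers listed 4 had a row, with a summed level of 4.34 to 7.95. Neutrophil markers fell in rTg4510, with 8 of 9 called lower at 6 months and 6 of 9 at 8 months, and their summed level was 9.08 to 10.4 in WT and 7.47 to 8.18 in rTg4510 at 6 months. In the astrocyte list 1 of 7 was called higher and 2 lower at 6 months, and in the endothelial list 1 of 6 was higher and 4 lower. The summed astrocyte level was 10.3 to 10.5 in WT and 9.53 to 9.86 in rTg4510 at 6 months. Of 7 oligodendrocyte markers 0 were called there, with sums of 8.12 to 8.48 and 7.51 to 7.88. Of 6 border macrophage markers 0 were higher and 1 lower, with overlapping sums of 10.2 to 10.8 and 9.91 to 10.3. In RNA from a cell pool, fewer cells of a type and less RNA per cell cannot be told apart. Mouse Mapt, whose row need not count reads of the human transgene, was called at no age, with log2 differences from -0.27 at 6 months to -1.01 at 8 months.

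Across the family, 6 of 55 members were called at 1 or more ages and 49 at none. At 2 months 1 member was called higher, Rab7b, where 1.58% of all genes were, and 0 lower, where 0.403% were (1.98% in either direction). At 4 months Rab7b, Rab32 and Rab34 were called higher, 5.45% of the members against 9.47% of all genes, and 0 lower against 4.33% (13.8% in either direction). At 6 months 4 members were called higher, with Rab20 joining those 3, or 7.27% of the members against 11.3% of all genes. Rab19 and Rab33a were called lower, or 3.64% against 8.54%, so that 10.9% of the members and 19.8% of all genes were called. At 8 months the 4 higher members were again Rab7b, Rab32, Rab34 and Rab20, or 7.27% against 10.5% of all genes, and 0 were lower against 5.37% (15.9% in either direction). The share of members called was thus below the share of all genes at 4, 6 and 8 months, a difference that was not tested. Among protein-coding genes alone, to which all members belong, the shares called were smaller, at 11.7%, 16.7% and 13.7%. Where 0 members were called lower in limma, the moderated variance also gave 0. An unadjusted limma p under 0.05 in either direction was reached by 6, 11 and 16 members at 2, 4 and 8 months. These were 10.9%, 20% and 29.1% of the members, beside 16.5%, 33.6% and 35.4% of all genes.

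At the successive ages 0, 3, 8 and 5 members passed the FDR under the fold limit, beside 1, 3, 6 and 4 called members. With the FDR alone, 1 member passed at 2 months, 6 at 4 months, 14 at 6 months and 9 at 8 months, where 6.03%, 23.2%, 34.1% and 25.7% of all genes passed. Of the members that passed under the 1.5-fold limit, 3 of 3 were higher in rTg4510 at 4 months, 6 of 8 at 6 months and 4 of 5 at 8 months. How all genes in that range split by direction was not counted. The median log2 difference of the 55 members was 0.02, 0.07, 0.15 and 0.13 at 2, 4, 6 and 8 months, beside 0.01, -0.04, -0.03 and -0.01 over all genes. The libraries of the genotypes did not overlap for 3, 13, 16 and 17 members at 2, 4, 6 and 8 months, and for 11%, 36.6%, 32.8% and 36.7% of all genes. Of the members not called, the 95% confidence interval of the difference lay inside 1.5 fold in either direction for 36 of 54 at 2 months, 26 of 52 at 4 months, 28 of 49 at 6 months and 23 of 51 at 8 months.

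**Figure D1:**
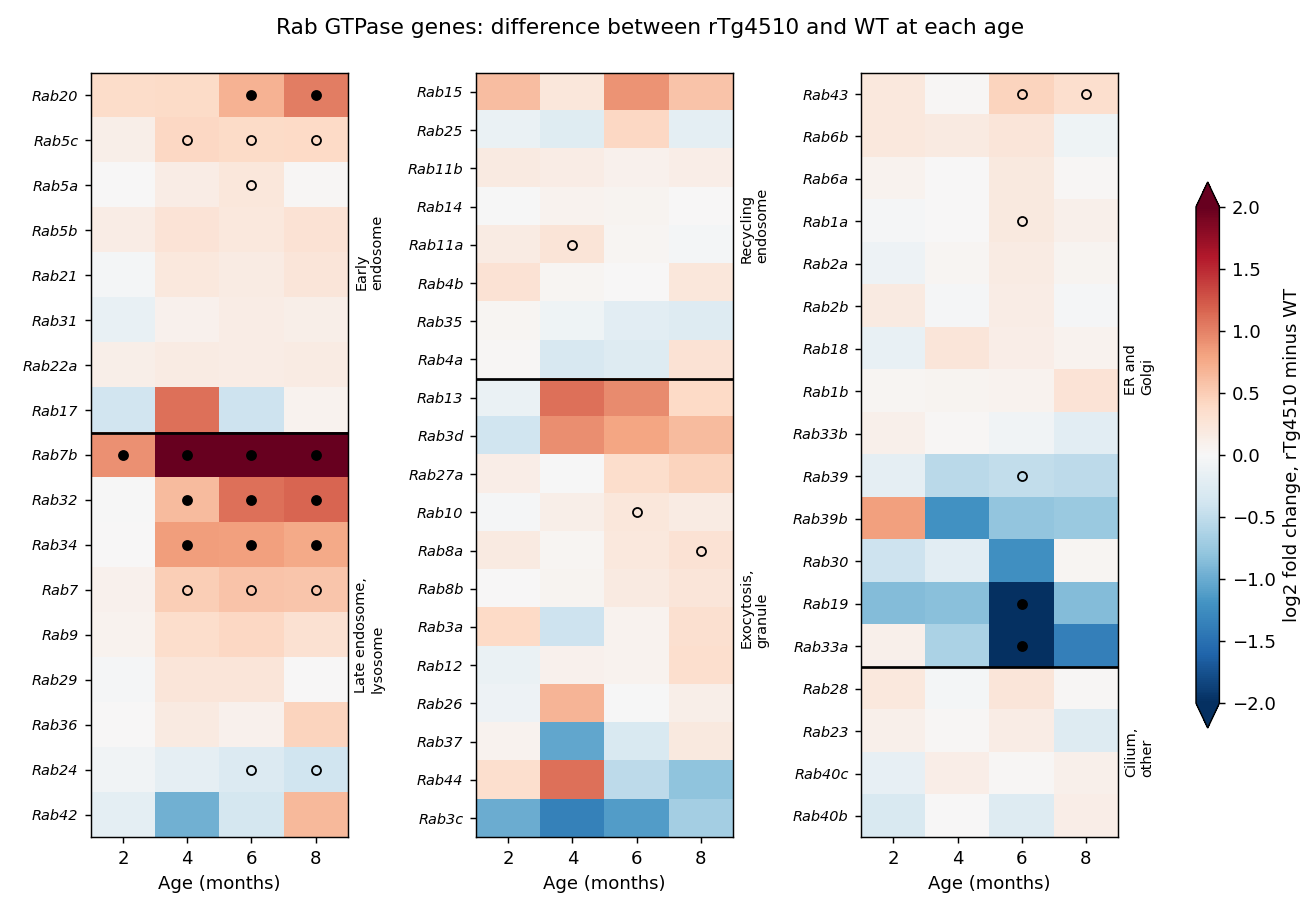
Log2 difference between rTg4510 and WT (colour, blue lower and red higher in rTg4510, cut at 2 in each direction) for the 55 Rab genes (rows, grouped by compartment) at each age in months (columns). Filled circles mark calls and open circles an FDR under 0.05 without 1.5 fold; calls sit in the late endosome group, in Rab20, and in Rab19 and Rab33a at 6 months.

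The late endosome, lysosome and autophagosome group held 3 of the 4 members called higher. Of its 9 measured genes 1 was called at 2 months and 3 at each later age, beside 1.98%, 13.8%, 19.8% and 15.9% of all genes at the successive ages. None of the 9 was called lower, and the group median moved from 0.00 at 2 months to 0.35, 0.42 and 0.56 at 4, 6 and 8 months. These values depend on the grouping, which was chosen with earlier results of these data known. Rab39, which takes part in autophagy, was counted under the ER and Golgi. It was lower at 6 months under the fold limit (-0.49, limma FDR = 0.0399).

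Rab7b, which acts between late endosomes and the trans-Golgi network and limits Toll-like receptor signalling in macrophages, rose most. It lies on chr1:131688681-131715443 on the plus strand of GRCm38. At 2 months its log2 signals were 3.88, 3.27, 3.20 and 3.16 in the WT libraries and 4.33, 4.43, 4.39 and 4.01 in rTg4510. At 4 months WT stood at 3.96, 3.85 and 3.49 and rTg4510 at 6.56, 6.44 and 6.81. The genotypes were apart at each of these ages, and the WT values stayed near the bottom of the scale while the rTg4510 values climbed. At 6 months the WT libraries gave 3.25, 2.93, 4.02 and 3.55 and the rTg4510 libraries 6.75, 6.84, 6.91 and 6.81. At 8 months they gave 3.67, 4.24 and 3.07 in WT and 7.21, 7.01 and 7.08 in rTg4510. The lowest rTg4510 library at 4 months or later was above each WT library of any age.

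The difference in Rab7b was 0.92 ± 0.22 (log2, SE; 1.89 fold, FDR = 0.0140) at 2 months, with n = 4 in each limma group. It was 2.84 ± 0.26 (7.15 fold, FDR = 4.88e-08) at 4 months, 3.39 ± 0.22 (10.5 fold, FDR = 1.88e-10) at 6 months and 3.44 ± 0.26 (10.8 fold, FDR = 3.03e-09) at 8 months. In 4 of the 28 libraries Rab7b was near the floor, where a fold change is least certain. The call at 2 months was lost without WT replicate 4 (0.84, FDR = 0.0519), and with the libraries of that age fitted alone (0.92, FDR = 0.0769).

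The gene next to Rab7b moved with it. Ctse, which encodes the endosomal aspartic protease cathepsin E, lies on the same strand and ends 13.2 kb before Rab7b starts (chr1:131638314-131675507). Its log2 signal ranged from 6.12 to 7.29 over the WT libraries and reached 10.2 to 10.5 at 4 months and 10.8 at 8 months in rTg4510. The difference of Ctse was 1.58, 3.69, 3.99 and 3.80 at the successive ages and was called at all 4. Further downstream, Pm20d1, which encodes an enzyme that makes N-acyl amino acids, was called lower at 6 and 8 months (-0.95 and -1.24). Slc41a1, a magnesium transporter gene, differed by 0.02 to 0.48 and was called at no age, and neither was Rab29, 152 kb from Rab7b, nor Nucks1. Upstream of Ctse, Fam72a was called lower at all 4 ages, from -0.60 to -1.77. Whether transcripts that run on from Ctse add reads to Rab7b was not tested, since the files hold gene signals and no reads by position.

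**Figure D2:**
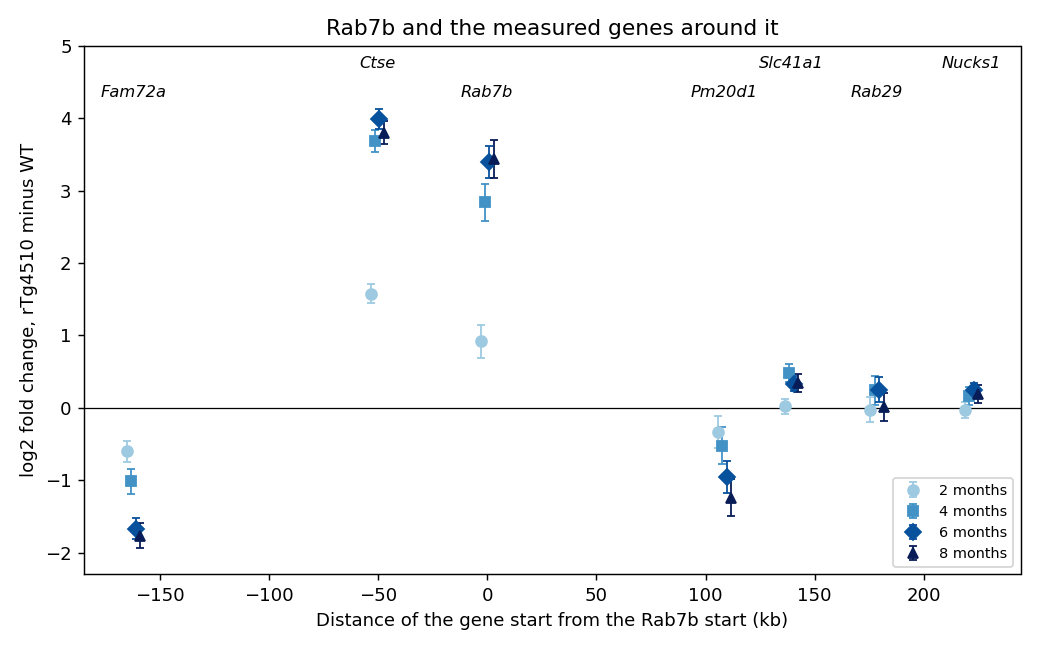
Log2 difference between rTg4510 and WT (vertical axis, ± SE of the fit) for Rab7b and the measured genes around it, against the distance of each gene's start from that of Rab7b in kb (horizontal axis), with ages in different symbols set slightly apart. Ctse and Rab7b are the only measured genes of this stretch called higher.

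Rab32, which directs cargo to lysosome-related organelles and also sits on mitochondria, rose from 4 months on. It lies on chr10:10545039-10558207. At 2 months the libraries overlapped, with WT at 6.85, 7.17, 7.13 and 7.28 and rTg4510 at 7.20, 6.89, 7.24 and 7.06. At 4 months WT gave 7.45, 7.27 and 6.62 and rTg4510 7.97, 7.56 and 7.71. At 6 months WT gave 7.11, 6.87, 6.98 and 7.01 and rTg4510 8.20, 8.13, 8.17 and 7.88. At 8 months WT gave 6.90, 7.05 and 6.78 and rTg4510 8.02, 8.22 and 7.97. From 4 months each rTg4510 library was above the WT libraries of its age, by a narrow margin at 4 months.

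The difference in Rab32 was -0.01 ± 0.14 (log2, SE) at 2 months, 0.63 ± 0.16 (limma FDR = 0.00685) at 4 months, 1.10 ± 0.14 (FDR = 2.52e-06) at 6 months and 1.16 ± 0.16 (FDR = 1.17e-05) at 8 months. The last is 2.23 fold. At 4 months the call rested on single libraries: it was 0.39 (FDR = 0.0619) without WT replicate 4 and 0.52 (FDR = 0.0450, under 1.5 fold) without rTg4510 replicate 1. It was also lost with the libraries of that age fitted alone (0.63, FDR = 0.245).

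Rab34, which gathers lysosomes near the Golgi and is needed for primary cilia, rose by a similar amount at each age from 4 months. It lies on chr11:78188427-78192193. At 2 months WT gave 4.57, 4.60, 4.90 and 4.71 and rTg4510 4.79, 4.72, 4.99 and 4.33, with overlap. At 4 months WT gave 4.23, 4.29 and 4.42 and rTg4510 5.02, 5.14 and 5.28. At 6 months WT gave 4.72, 4.72, 4.24 and 4.51 and rTg4510 5.25, 5.49, 5.38 and 5.35. At 8 months WT gave 4.26, 4.54 and 4.40 and rTg4510 5.03, 5.35 and 5.10. The groups were apart at 4, 6 and 8 months. The limma difference was 0.01 at 2 months, 0.83 ± 0.14 (SE; FDR = 0.000167) at 4 months, 0.82 ± 0.13 (FDR = 2.31e-05) at 6 months and 0.76 ± 0.14 (FDR = 0.000386) at 8 months. Rab34 kept its calls at these 3 ages in each of the alternatives tried.

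Rab7, the Rab of late endosome and lysosome fusion, stayed just under the fold limit. Its signals were 10.38, 10.71, 10.67 and 10.53 in WT and 10.65, 10.64, 10.65 and 10.69 in rTg4510 at 2 months, with overlap. At 4 months they were 10.59, 10.47 and 10.37 in WT and 10.91, 11.00 and 11.00 in rTg4510. At 6 months they were 10.44, 10.29, 10.40 and 10.35 in WT and 11.02, 11.01, 10.76 and 11.00 in rTg4510, and at 8 months 10.43, 10.23 and 10.38 against 10.79, 10.90 and 11.02. From 4 months no library of the genotypes overlapped. The limma difference was 0.49 ± 0.08 (SE; FDR = 0.000122), 0.58 ± 0.07 (FDR = 1.62e-06) and 0.56 ± 0.08 (FDR = 2.33e-05) at 4, 6 and 8 months, or 1.41, 1.49 and 1.47 fold. The 95% interval at 6 months ran from 0.43 to 0.73 and so reached past 1.5 fold, and with all 32 libraries Rab7 was called at 8 months (0.60, FDR = 0.00084).

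Rab24, a Rab of late autophagosome clearance, differed the other way. It passed the FDR under the fold limit at 6 months (-0.27 ± 0.09, limma FDR = 0.0185) and at 8 months (-0.39 ± 0.10, FDR = 0.00506), with each rTg4510 library below the WT libraries of its age. Rab9, of late endosome to trans-Golgi transport, differed by 0.08, 0.35, 0.42 and 0.30 and did not pass, but was called at 4 months with all 32 libraries (0.95, limma FDR = 0.0253). Rab29, Rab36 and Rab42 were not called between the genotypes at any age. Uncalled members of the group ranged from -0.96 to 0.64, the extremes being Rab42, which was near the floor in 3 libraries.

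**Figure D3:**
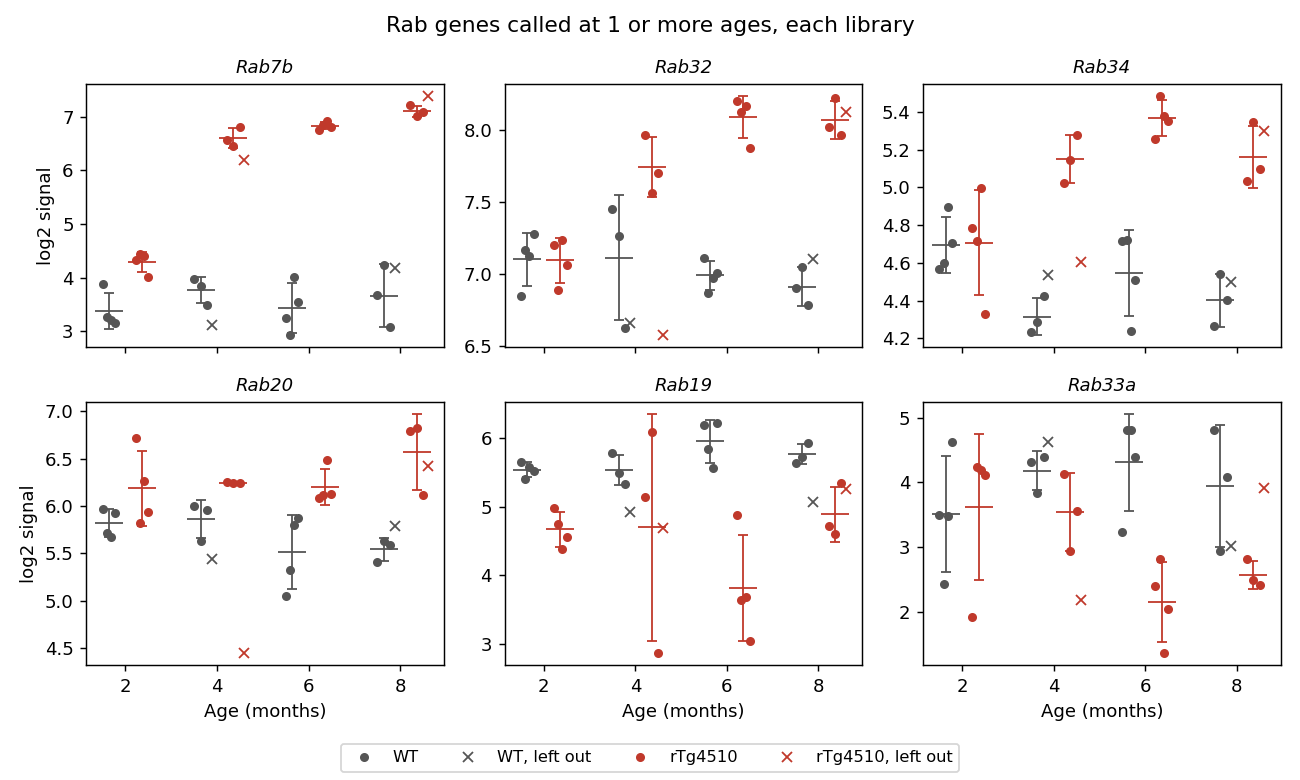
Log2 signal (vertical axis) of the 6 Rab genes called at 1 or more ages, by age in months (horizontal axis) for WT (grey) and rTg4510 (red). Points are libraries, bars the mean ± SD of the libraries used, and crosses the 4 libraries that failed quality control and were left out. Among the libraries used, Rab7b separates the genotypes at every age and Rab32, Rab34 and Rab20 from 4 months. Rab19 and Rab33a scatter more widely.

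In the early endosome group 1 of 8 measured members was called, Rab20, at 6 and at 8 months, where 19.8% and 15.9% of all genes were, and 0 were lower. Rab20 is found on endosomes and phagosomes of macrophages, where it takes part in their maturation. It lies on chr8:11453390-11478640. At 2 months WT gave 5.97, 5.71, 5.67 and 5.93 and rTg4510 6.72, 5.82, 6.26 and 5.94, and at 4 months WT gave 6.00, 5.63 and 5.95 and rTg4510 6.25, 6.24 and 6.24. At 6 months WT gave 5.05, 5.32, 5.80 and 5.87 and rTg4510 6.09, 6.12, 6.49 and 6.13. At 8 months WT gave 5.41, 5.63 and 5.59 and rTg4510 6.79, 6.82 and 6.11. The groups overlapped at 2 months and were apart from 4 months.

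The limma difference in Rab20 was 0.37, 0.38, 0.70 ± 0.20 (SE; FDR = 0.00896) and 1.03 ± 0.23 (FDR = 0.00159) at the successive ages. At 6 months it was 0.54 (FDR = 0.0440), under the fold limit, without WT replicate 1, and the call was lost with all 32 libraries fitted (FDR = 0.106). Fitted on the libraries of the age alone, Rab20 was not called at 6 months (FDR = 0.0621) or at 8 months (FDR = 0.0752). A long non-coding RNA gene on the opposite strand, E230013L22Rik, overlaps the start of Rab20. The sources used here do not state that strand was kept in counting, so reads of the pair may not be separated.

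The Rab5 genes encode the master Rabs of early endosome fusion, and Rab5c passed the FDR at 3 ages without reaching 1.5 fold. Its signals at 4 months were 8.46, 8.48 and 8.35 in WT and 8.79, 8.89 and 8.86 in rTg4510. At 6 months they were 8.30, 8.31, 8.36 and 8.32 against 8.71, 8.69, 8.77 and 8.67, and at 8 months 8.17, 8.20 and 8.28 against 8.54, 8.61 and 8.71. At 2 months WT gave 8.53, 8.78, 8.81 and 8.74 and rTg4510 8.87, 8.68, 9.15 and 8.59, with overlap. The limma difference was 0.41 (FDR = 0.00259), 0.39 (FDR = 0.00084) and 0.40 (FDR = 0.00277) at 4, 6 and 8 months, each rTg4510 library above those of WT. Rab5a passed at 6 months (0.22, FDR = 0.0292), with WT at 7.09, 7.10, 7.10 and 7.01 and rTg4510 at 7.32, 7.37, 7.22 and 7.28. At 2 months Rab5a gave 6.98, 7.12, 7.18 and 7.22 in WT and 7.32, 7.15, 6.93 and 7.12 in rTg4510. At 4 months it gave 7.12, 7.12 and 7.15 against 7.41, 7.33 and 7.09, and at 8 months 7.14, 7.24 and 7.27 against 7.12, 7.19 and 7.39, with overlap at these 3 ages. Rab5b gave 6.27, 6.46, 6.84 and 6.96 in WT and 6.68, 6.51, 7.02 and 6.94 in rTg4510 at 2 months, and 6.56, 6.71 and 6.53 against 6.86, 6.83 and 6.93 at 4 months. It gave 6.71, 6.62, 6.69 and 6.71 against 6.84, 6.79, 7.08 and 6.88 at 6 months, and 6.32, 6.44 and 6.87 against 6.80, 6.89 and 6.79 at 8 months. The Rab5b libraries were apart at 4 and 6 months, and its differences of 0.15 to 0.28 did not pass. The remaining members were Rab17, Rab21, Rab22a and Rab31, none of them called, and Rab17, near the floor in 7 libraries, gave the extremes of the group, -0.41 and 1.11.

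None of the 8 recycling endosome members was called at any age, with group medians of 0.10, 0.06, 0.04 and 0.07. Rab11a, the central Rab of slow recycling, passed the FDR under the fold limit at 4 months (0.26, limma FDR = 0.0275) and differed by 0.04 and -0.04 at 6 and 8 months. Rab11b, Rab4a, Rab4b, Rab14 and Rab35 differed by -0.33 to 0.29 over the 4 ages. Rab15 and Rab25, near the floor in 6 and 15 libraries, gave values up to 0.90 that did not pass.

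In the ER and Golgi group 2 of 14 members were called, both lower in rTg4510 at 6 months, where 8.54% of all genes were lower. Rab19 is a Golgi Rab, and lies on chr6:39380709-39390666. At 2 months WT gave 5.65, 5.40, 5.58 and 5.52 and rTg4510 4.98, 4.75, 4.38 and 4.56. At 4 months WT gave 5.77, 5.49 and 5.33 and rTg4510 5.14, 6.09 and 2.86, so that replicates 2 and 4 lay on either side of WT. At 6 months WT gave 6.18, 5.84, 5.56 and 6.22 and rTg4510 4.88, 3.65, 3.68 and 3.05, and at 8 months WT gave 5.64, 5.72 and 5.93 and rTg4510 4.71, 4.60 and 5.35. The rTg4510 libraries were below WT at 2, 6 and 8 months and overlapped at 4 months. The limma difference was -0.87 (FDR = 0.361), -0.84 (FDR = 0.281), -2.13 ± 0.45 (SE; FDR = 0.000865) and -0.87 (FDR = 0.25). At 4 months it was -1.53 (FDR = 0.0299) without rTg4510 replicate 2 and 0.08 without rTg4510 replicate 4, and at 2 months it was called when the libraries of that age were fitted alone (FDR = 0.0375).

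Rab33a, a Rab of the Golgi and of secretory vesicles, lies on chrX:48513663-48530240. At 2 months WT gave 3.49, 2.43, 3.49 and 4.62 and rTg4510 1.92, 4.24, 4.18 and 4.12, and at 4 months WT gave 4.31, 3.84 and 4.39 and rTg4510 4.14, 2.94 and 3.56. At 6 months WT gave 3.23, 4.81, 4.81 and 4.39 and rTg4510 2.39, 2.82, 1.36 and 2.05. At 8 months WT gave 4.80, 2.94 and 4.08 and rTg4510 2.82, 2.49 and 2.41. The groups overlapped at 2 and 4 months and were apart at 6 and 8 months. The limma difference was -2.15 ± 0.54 (SE; FDR = 0.00383) at 6 months and -1.37 ± 0.63 (FDR = 0.123) at 8 months. Rab33a was near the floor in 10 libraries, among them all 3 of rTg4510 at 8 months. At 6 months, the age of its call, the rTg4510 values of 2.39, 1.36 and 2.05 were near the floor as well. The value of 2.82 lay at the edge of that range. The size of the Rab33a difference is thus poorly bounded.

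At 6 months, the age at which Rab19 and Rab33a were called lower, 8 of the 9 neutrophil markers were called lower too, where 8.54% of all genes were. At 8 months 6 of the 9 were called lower, beside 5.37% of all genes. Neither Rab was called there (-0.87 for Rab19 and -1.37 for Rab33a), with each rTg4510 library below WT for both. The libraries did not overlap for 36.7% of all genes at that age. S100a8 and S100a9, which encode an abundant neutrophil protein pair, differed by -2.15 and -2.02 at 6 months, and the granulocyte enzyme gene Mpo by -2.42. At 2 months 0 of 9 were called, with S100a8 at 0.00 and S100a9 at 0.11. Rab19 and Rab33a differed by -0.87 and 0.11 at 2 months and were not called. The rTg4510 libraries lay below WT for Rab19 there, and 11% of all genes had libraries that did not overlap. Of the lymphocyte markers 5 of 7 had a row and 1 was called lower at 6 months, their summed level being 5.46 to 6.81 in WT and 5.13 to 5.92 in rTg4510. The part of these cells in the 2 Rab differences was not tested.

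Rab43, of ER to Golgi transport and phagosomes, passed the FDR under the fold limit at 6 months (0.44 ± 0.09, limma FDR = 0.000341) and 8 months (0.34 ± 0.10, FDR = 0.0126). Rab1a, of ER to Golgi transport, passed at 6 months (0.20, FDR = 0.0307). Rab39, which takes part in phagosome acidification and autophagy, was lower at 6 months (-0.49, FDR = 0.0399) with overlapping libraries. It was called lower at 4 and 8 months after quantile normalization (-0.59 and -0.60) and at 4 months with all 32 libraries (-0.63). Rab1b, Rab2a, Rab2b, Rab6a, Rab6b, Rab18, Rab30, Rab33b and Rab39b were not called and did not pass the FDR at any age. Among the 12 uncalled members the differences ran from -1.22 for Rab30 to 0.82 for Rab39b, which were near the floor in 12 and 3 libraries.

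None of the 12 exocytosis and secretory granule members was called. Rab10, of Golgi to surface transport, passed the FDR under the fold limit at 6 months (0.23, limma FDR = 0.0366), and its relative Rab8a at 8 months (0.29, FDR = 0.0374). Rab27a, of lysosome-related granule and exosome release, differed by 0.35 and 0.45 at 6 and 8 months and did not pass, but was called at 8 months with all 32 libraries (0.66, limma FDR = 0.0196). Rab13, of tight junction traffic, differed by 1.10 at 4 months and 0.94 at 6 months with an SD within groups of 0.54, and was not called. It was called at 4 months with all 32 libraries (1.18, limma FDR = 0.0462) and at 6 months after quantile normalization (1.06, FDR = 0.0383). Rab3a, Rab3c, Rab3d, Rab8b, Rab12, Rab26, Rab37 and Rab44 were not called either, the lowest value being -1.35 for Rab3c at 4 months, although Rab3a was called lower at 4 months with all 32 libraries (-1.03, limma FDR = 0.0237).

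The cilium and ubiquitin ligase adaptor group, Rab23, Rab28, Rab40b and Rab40c, held 0 calls, and its 4 members differed by -0.31 to 0.24 over the ages.

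The genotype effect itself differed between ages for few members. Between 2 and 4 months it grew for 2 members, Rab7b (by 1.92 ± 0.34, limma FDR = 0.00124) and Rab34 (by 0.82 ± 0.19, FDR = 0.0109), where 4.66% of all genes were called. Between 2 and 8 months it grew for 3, Rab7b (by 2.52, FDR = 5.33e-05), Rab32 (by 1.17, FDR = 0.00133) and Rab34 (by 0.74, FDR = 0.0149), where 6.7% of all genes were called. Between 4 and 6 months 0 members were called against 0.156% of all genes, and 3 had an unadjusted limma p under 0.05 against 8.15%. Between 6 and 8 months 0 members were called against 0% of all genes, and 1 had an unadjusted limma p under 0.05 against 4.52%. The moderated variance in limma gave 0 calls at both steps. Rab20, Rab19 and Rab33a were called at 6 months and not at 2 months, but the difference between these ages was not tested, and between 2 and 8 months their effects were not called as different (FDR = 0.202, 0.998 and 0.334). These contrasts share the libraries of an age and are not independent of each other.

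Within rTg4510, 4 members were called between 8 and 2 months, or 7.27% against 10.5% of all genes. Rab7b rose by 2.81 (limma FDR = 3.3e-08), Rab32 by 0.97 (FDR = 7.77e-05) and Rab36, a relative of Rab34 on late endosomes and Golgi, by 1.25 (FDR = 0.006). Rab39 fell by 0.67 (FDR = 0.0170). Within WT 0 members were called, where 1.27% of all genes were, and the moderated variance also gave 0. An unadjusted limma p under 0.05 was reached by 12 members (21.8%) and by 19.2% of all genes. Rab5c passed the FDR in WT under the fold limit, as it fell by 0.50 between 2 and 8 months (FDR = 0.00422), and in rTg4510 it differed by -0.20 (FDR = 0.115). Rab36 differed by 0.80 in WT (FDR = 0.158), and its libraries at 8 months were 5.95, 6.00 and 5.55 in WT and 6.46, 6.03 and 6.36 in rTg4510. Its change with age in WT and rTg4510 was not called as different (0.44, FDR = 0.643).

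Close relatives within the family were set against each other. For 16 pairs of paralogues, the log2 signal of one gene minus that of the other was compared between rTg4510 and WT over the 20 libraries of 4, 6 and 8 months, in a two-sided exact permutation test within ages with p-values adjusted over the 16 pairs. The genotype effect differed in 6 pairs. Rab7b exceeded Rab7 by 2.68 in its mean effect over the 3 ages (3.22 against 0.54, adjusted exact permutation p = 0.000571), and Rab5c exceeded Rab5a by 0.27 (0.40 against 0.13, adjusted p = 0.000571), each at the smallest p the permutations allow, 7.14e-05 before adjustment. Rab5c also exceeded Rab5b, by 0.15 (adjusted exact permutation p = 0.0229). The Rab5 genes therefore did not move by equal amounts, although they serve the same compartment. With labels swapped only within same-numbered libraries at 6 and 8 months, a test chosen after seeing the data, the same 6 pairs passed, with adjusted exact permutation p-values from 0.00625 to 0.0458.

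Rab33a was lower than Rab33b by 1.30 in its effect (-1.39 against -0.08, adjusted exact permutation p = 0.00152). Rab33b, a Golgi Rab that recruits the Atg16l1 autophagy complex, gave 7.25, 7.43, 7.44 and 7.15 in WT and 7.54, 7.39, 7.71 and 7.06 in rTg4510 at 2 months, and 7.27, 7.16 and 7.12 against 7.18, 7.19 and 7.26 at 4 months. It gave 6.99, 7.60, 7.50 and 7.27 against 6.97, 7.32, 7.32 and 7.47 at 6 months, and 7.20, 6.96 and 7.32 against 6.98, 7.26 and 6.61 at 8 months. The genotypes overlapped for Rab33b at all 4 ages. Rab34 exceeded Rab36 by 0.56 (0.80 against 0.24, adjusted exact permutation p = 0.024). At 4 months Rab36 gave 4.09, 4.49 and 5.0 in WT and 5.32, 4.09 and 4.72 in rTg4510, and at 6 months 5.78, 5.09, 5.43 and 5.42 against 5.20, 5.65, 5.97 and 5.25, with overlap at both ages. At 2 months Rab36 gave 4.23, 5.49, 5.16 and 5.25 in WT and 4.86, 5.40, 4.60 and 5.28 in rTg4510, again with overlap.

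Rab3d exceeded Rab3a, both Rabs of regulated secretion, by 0.80 (0.79 against -0.01, adjusted exact permutation p = 0.024). Rab3d gave 3.31, 3.39 and 3.75 in WT and 4.50, 4.00 and 4.76 in rTg4510 at 4 months, and the genotypes were apart there. It gave 3.83, 4.49, 3.56 and 3.72 against 4.64, 4.09, 5.24 and 4.79 at 6 months, 3.62, 3.93 and 3.59 against 4.97, 3.64 and 4.42 at 8 months, and 4.07, 4.58, 4.10 and 3.53 against 3.71, 4.48, 3.44 and 3.06 at 2 months, with overlap at these 3 ages. Rab3a overlapped at all 4 ages. Its WT and rTg4510 libraries gave 5.51, 4.63, 4.83 and 4.67 against 5.11, 5.0, 5.49 and 5.66 at 2 months, and 5.05, 5.19 and 4.81 against 4.83, 4.24 and 4.73 at 4 months. They gave 5.06, 4.85, 4.49 and 5.04 against 5.20, 4.72, 5.04 and 4.74 at 6 months, and 4.49, 4.83 and 5.15 against 4.62, 5.31 and 5.53 at 8 months. Rab3d alone was not called at any age (limma FDR = 0.0644 at 6 months), but was called at 6 months after quantile normalization (0.88, FDR = 0.0369).

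The other 10 pairs missed the threshold, with adjusted exact permutation p-values from 0.303 to 0.77. They were Rab1a with Rab1b, Rab2a with Rab2b, Rab4a with Rab4b, Rab5a with Rab5b, Rab6a with Rab6b, Rab8a with Rab8b, Rab11a with Rab11b, Rab22a with Rab31, Rab39 with Rab39b and Rab40b with Rab40c. Their differences in effect lay between -0.19 and 0.39, and the SD of the difference within groups was largest for Rab39 with Rab39b (1.22). Reads shared between such similar coding sequences could be assigned to either gene, and how they were assigned is not given in the sources used here.

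**Figure D4:**
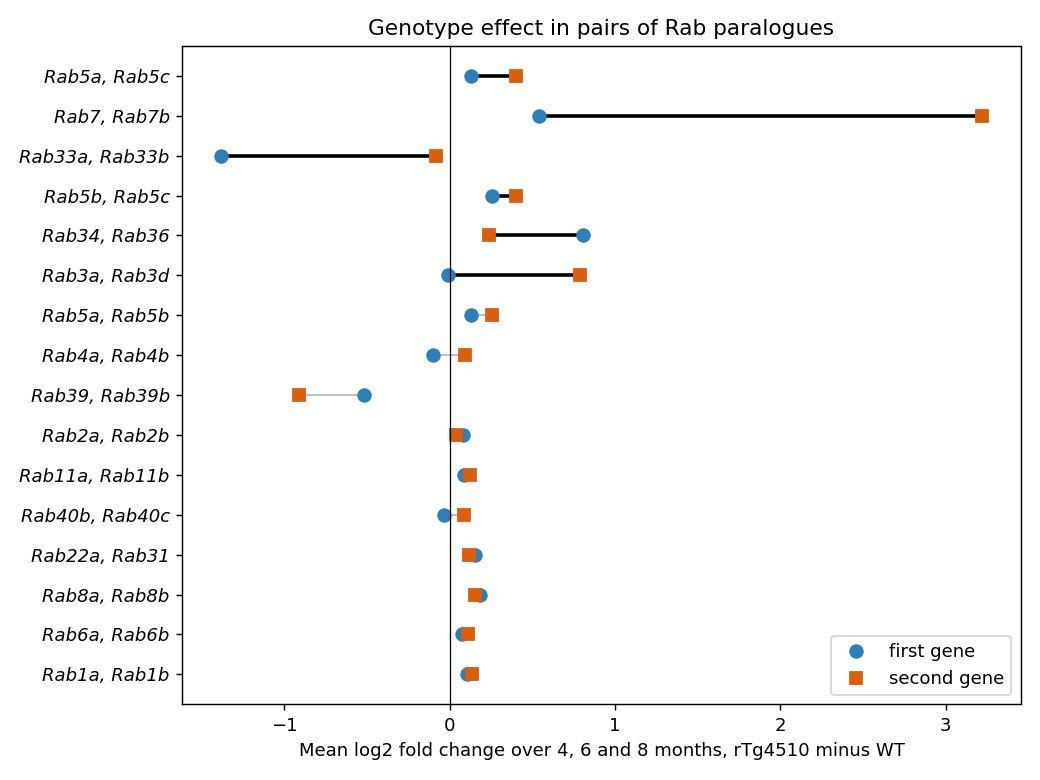
Mean log2 difference between rTg4510 and WT over 4, 6 and 8 months (horizontal axis) for the first (circle) and second (square) gene of 16 pairs of Rab paralogues (rows). Thick black lines join the 6 pairs whose effects differed in the exact permutation test; the Rab7 and Rab7b pair is the widest.

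The 300 bases around the start (250 before and 50 after) are given in RefSeq on GRCm38.p6 for 46 of the 55 members. Rab2a, Rab4a, Rab7b, Rab18, Rab26, Rab30, Rab36, Rab37 and Rab44 have no entry in that table. The windows were searched on both strands for 3 short motifs, CACGTG (the E-box core bound by MiT/TFE factors among others), TGACTCA (an AP-1 site) and GAGGAAGT (a site of the PU.1 type). In the stretches shown no match of one motif overlaps a match of another. CACGTG stood in 6 of the 58 member windows (10.3%) and in 7.15% of all windows, TGACTCA in 3 (5.17%) and in 5.2%, and GAGGAAGT in 2 (3.45%) and in 3.2%. Of the called members, Rab20 held the first, Rab34 the second, on the opposite strand, and Rab32 the third, and 60 bases ahead of the start of each are printed to show where the match lies, with the match in capitals, 5′ to 3′ on the strand of the gene. They span chr8:11478654-11478713 on the minus strand, chr11:78188342-78188401 on the plus strand and chr10:10558218-10558277 on the minus strand.
Rab20: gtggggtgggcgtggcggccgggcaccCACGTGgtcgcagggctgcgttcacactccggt
Rab34: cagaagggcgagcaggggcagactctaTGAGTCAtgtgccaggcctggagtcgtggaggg
Rab32: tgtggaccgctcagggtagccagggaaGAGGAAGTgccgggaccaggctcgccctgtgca

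The matches begin 46, 58 and 43 bases before the start of Rab20, Rab34 and Rab32. The 3 members that are raised and have a window each held a different motif of the 3, but the motifs were chosen after values were seen. Rab5a, Rab21, Rab23, Rab24 and Rab27a also held CACGTG, and of these 0 were called. The match shares of the members lay close to those of all windows.

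The partners of the Rab cycle were listed as 9 GDP dissociation inhibitor, escort and prenylation genes, 42 GEFs, 40 GAPs and 73 effectors with a row, 164 genes in all. Of these, 1, 15, 19 and 19 were called at the successive ages (0.61%, 9.15%, 11.6% and 11.6%), each share being lower than that of all genes given above. The median log2 difference of the 164 genes was 0.00, -0.09, -0.05 and -0.05 at the successive ages.

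Of the 73 effectors 16.4% were called at 4 and at 8 months, beside 13.8% and 15.9% of all genes. Protein-coding genes alone gave 11.7% and 13.7% at these ages. At 6 months 10 effectors were called higher and 3 lower, or 17.8% beside 19.8% of all genes and 16.7% of protein-coding genes. These shares were not compared in a test. The largest increases were in Rims2, a Rab3-binding scaffold of secretion sites (2.49, limma FDR = 5.92e-08), Rab11fip4, a Rab11 effector (1.83, FDR = 1.61e-06), and Myo5a, the myosin motor linked to Rab27a-bearing organelles (1.63, FDR = 1.22e-09). Rims2 and Rab11fip4 had low WT means at that age, 2.50 and 2.83. The largest decreases were in Rufy4, an autophagy protein that binds Rab7 (-1.31, FDR = 0.0425), Mical3, a Rab8-binding monooxygenase (-0.82, FDR = 2.21e-08), and Lrrk2, a kinase that phosphorylates Rab proteins (-0.74, FDR = 0.0199). Rufy4 overlapped between the genotypes, with group means of 3.94 and 2.63.

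Of the 40 GAPs 4 were called higher and 1 lower at 6 months, or 12.5% beside 19.8% of all genes. Tbc1d30 (1.05), Tbc1d8 (0.80) and Tbc1d10a (0.62) had the largest increases. Tbc1d10c, known as carabin in lymphocytes, fell by 1.44 on the log2 scale (limma FDR = 0.000911). Among the 42 GEFs Dennd2c, which acts on Rab9, was the 1 called at 6 months (-0.73), or 2.38%. At 8 months 2 GEFs were higher and 2 lower, or 9.52% beside 15.9% of all genes. None of the 9 GDP dissociation inhibitor, escort and prenylation genes was called at any age.

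**Figure D5:**
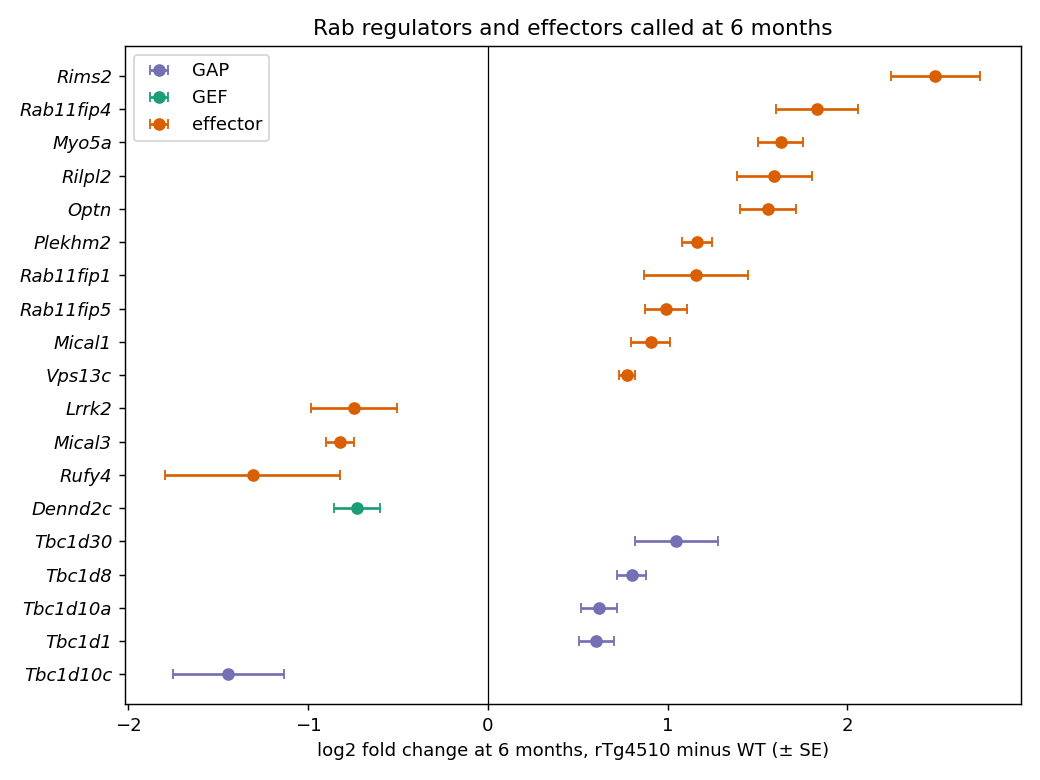
Log2 difference between rTg4510 and WT at 6 months (horizontal axis, ± SE) for the 19 Rab regulators and effectors called at that age (rows), coloured as GEF, GAP or effector. Rims2 has the largest increase and Tbc1d10c the largest decrease.

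Of the effectors, Rilpl2, which binds Rab8 and Rab10 after their phosphorylation, was the 1 regulator called at 2 months (1.07, limma FDR = 0.00237), and it was called at the 3 later ages as well (1.09, 1.59 and 1.75). Optn, an autophagy receptor that binds Rab8, was called at 4, 6 and 8 months (1.20, 1.56 and 1.76), as was Plekhm2, which links lysosomes to kinesin (0.60, 1.16 and 1.25). These 3 were named after their values were seen.

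The 4 libraries left out were read beside the others. At 8 months the rTg4510 library left out gave 7.39 for Rab7b, 8.13 for Rab32, 5.30 for Rab34 and 6.42 for Rab20, and its WT counterpart gave 4.17, 7.10, 4.50 and 5.79, so that these 4 genes were higher in rTg4510 there too. Rab19 gave 5.25 in that rTg4510 library and 5.07 in that WT library, and Rab33a gave 3.91 and 3.02, so that both were higher in rTg4510 there and lower in the libraries used at that age. At 4 months the rTg4510 library left out gave 6.20 for Rab7b, 6.58 for Rab32, 4.61 for Rab34 and 4.44 for Rab20. The WT library left out at that age gave 3.11, 6.66, 4.54 and 5.44, so that Rab7b was higher in rTg4510 by over 3 log2 units while Rab32 and Rab20 were lower. Rab19 and Rab33a were lower in rTg4510 there as well, with 4.69 against 4.92 and 2.19 against 4.63. With all 32 libraries in the fit, Rab32 was no longer called at 4 months (0.45, limma FDR = 0.119).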

How the data were processed

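RNA sequencing of microglia from 32 libraries was deposited as 1 table of log2 gene signals for 18588 genes. Before deposit, the authors added up the exon reads of repeated runs, dropped weakly covered exons, and turned the exons of a gene into 1 signal by a robust linear model; they deposited these as log2 values with a common library median (5.63 here). The submitters' processing notes name GRCm38; aligner, annotation and counting strand are not given in the sources used here. No read totals are in the files, so the depth is unknown and no counting interval was given. Log2 signals compress low genes, and median scaling reports changes relative to the median gene.

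Entrez identifiers were matched to RefSeq (GRCm38.p6) symbols for 17828 of 18588 genes (95.9%). The 28 libraries that passed the study's quality control entered limma 3.58.1 (R 4.3.3) with 8 group means and unmoderated variances, and contrasts between genotypes within ages, between ages, and for their interaction. The Benjamini-Hochberg FDR was taken over all genes of a contrast. The procedure was tested on simulated data. Paralogue pairs were compared by exact enumeration of genotype labels within ages, and, as an alternative chosen after seeing the data, of swaps within same-numbered pairs at 6 and 8 months. Each library pooled several animals. Alternatives were the moderated variance, the libraries of the age alone, all 32 libraries, a replicate block, quantile normalization, genes above the 25th percentile of mean signal, and leaving out each library.

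Every Rab called at any age was named, with library values for these and for pairs that passed; other Rabs were described within their compartment, and up to 3 increases and 3 decreases per regulator list among those called at 6 months were named. The genes around Rab7b, the near-floor range, the motifs, Rab36, Rab39, Rilpl2, Optn and Plekhm2 were chosen after values were seen. The members and lists were chosen with earlier results of these data known.

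Same-numbered rTg4510 and WT libraries share only a number in the labels. The correlation of their deviations from the group means ranged from 0.0649 to 0.167 (2 months), from -0.0999 to 0.124 (4 months), from 0.131 to 0.153 (6 months) and from 0.150 to 0.291 (8 months). Differently numbered pairs ranged from -0.194 to 0.0816, from -0.0709 to 0.154, from -0.127 to 0.0913 and from -0.259 to -0.0281 at the successive ages. At the last 2 ages only, every same-numbered pair was above 0.1 and above every differently numbered pair. There the swaps of the alternative paralogue test took the numbers to pair the libraries. The replicate block used the numbers at all 4 ages. The main limma fit and the main permutation test used no pairing.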

Additional observations from a re-analysis of the deposited data

Results flagged for a closer look

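In 14 genes given by library, the 56 groups of 4 libraries were examined for a library far from the other 3 (Dixon's test), which chance alone flags in about 1 in 20 groups. It found 5. In rTg4510 at 6 months, replicate 3 gave 6.49 for Rab20, above 6.09 to 6.13 in the others, and 10.8 for Rab7, below 11.00 to 11.02. In rTg4510 at 2 months, replicate 1 gave 1.92 for Rab33a against 4.12 to 4.24. In WT, replicate 1 at 2 months gave 3.88 for Rab7b against 3.16 to 3.27, and replicate 4 at 6 months gave 7.01 for Rab5a against 7.09 to 7.10.

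The genotype effect differed between ages in 5 interaction contrasts of limma. Between 2 and 4 months it grew by 1.92 for Rab7b and by 0.82 for Rab34, and between 2 and 8 months by 2.52 for Rab7b, 1.17 for Rab32 and 0.74 for Rab34.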

How the results depend on the processing

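With the moderated variance no count of called members changed. With the libraries of the age alone, 0 members were higher and 1 was lower at 2 months (Rab19), 5 passed the FDR at 8 months, and 0 and 9 regulators were called at 2 and 4 months. With all 32 libraries 2 members were lower at 4 months (Rab39 and Rab3a), Rab9 and Rab13 were called higher there and Rab7 and Rab27a at 8 months (6 higher members in all), 1 effect differed between 2 and 4 months, 8 members passed the FDR at 6 months, and 2 were called between 8 and 2 months in rTg4510. Quantile normalization gave 1 lower member at 4 months and 1 at 8 months (Rab39 in both), added Rab13 and Rab3d at 6 months (6 higher members in all) and 2 regulators at 2 months, and the filter on low values left 1 lower member at 6 months, as Rab33a was not tested. With the replicate block 2 members passed the FDR at 2 months and 2 regulators were called there, and it changed no other call of the members; the 6 paralogue pairs also passed with labels swapped within pairs at 6 and 8 months, a setting chosen after seeing the data.

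Leaving out each library in turn, members called higher numbered 0 to 1, 2 to 4, 4 to 6 and 4 to 5 at the successive ages, and lower 0, 0 to 1, 2 to 3 and 0 to 1. Those passing the FDR numbered 0 to 2, 5 to 7, 11 to 16 and 7 to 11, and regulators 1 to 2, 10 to 15, 16 to 21 and 15 to 20. At 2 months 0 members were higher without WT replicate 4, and regulators numbered 2 without rTg4510 replicate 2 or 4; 1 member was lower at 4 months without rTg4510 replicate 2 (Rab19) and at 8 months without WT replicate 2. Paralogue pairs that differed numbered 4 to 6, members called between 8 and 2 months 3 to 5 in rTg4510 and 0 in WT, and effects that differed 2 to 3 between 2 and 4 months and 2 to 3 between 2 and 8 months. The medians ranged from 0.00 to 0.05, 0.05 to 0.13, 0.10 to 0.18 and 0.09 to 0.21. No called difference changed sign. Uncalled ones did when a library was left out: Rab19 at 4 months ranged from -1.53 to 0.08, and at 2 months Rab33a from -0.25 to 0.67, Rab32 from -0.09 to 0.06 and Rab34 from -0.08 to 0.14. The causes were not tested. Groups of 3 or 4 pools and values near the floor limit what could be called.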
